A study of Plutella xylostella with 12 samples.

Results

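The 6 h dose comparison set 3 small RNA libraries from larvae of the diamondback moth *Plutella xylostella* exposed to 0.1 ppm chlorantraniliprole (high dose) against 3 from larvae exposed to 0.01 ppm (low dose), out of 12 libraries in all. Larvae of both groups were 3rd instar, of the insecticide-susceptible Waite strain, and RNA came from the whole body of larvae that survived to 6 h. Both groups were therefore treated, and unexposed larvae were not analysed here. A miRNA name was tested where its summed count was at least 10 in 3 or more of the 6 libraries, which held for 61 of the 89 names listed at 6 h and of the 105 listed in the whole series. The comparison asked whether a higher dose of the insecticide gave a different miRNA profile soon after exposure. RNA from whole larvae cannot tell fewer cells of a type from less RNA per cell.

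Chlorantraniliprole is a diamide insecticide that opens ryanodine receptors, through which muscle cells release stored calcium, and poisoned larvae stop feeding and contract. A miRNA is cut from a hairpin precursor as a pair of arms, 5p and 3p, of which one usually accumulates, and it lowers the output of messenger RNAs that match its seed. In insect larvae, miRNAs of the let-7 complex, miR-14 and miR-281 act with the moulting hormone ecdysone, miR-278 acts on insulin responses and energy stores in *Drosophila*, and miR-1 is the main muscle miRNA.

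No miRNA passed between the doses at 6 h. With Benjamini-Hochberg adjustment, edgeR's quasi-likelihood test called 0 of 61 names (0.0%), and the smallest adjusted p was 0.171. DESeq2 called 0 as well, and so did limma-voom with sample weights. At an unadjusted p under 0.05 stood 7 names (11.5%) in edgeR, 7 in DESeq2 and 9 in limma-voom. Of the 7 in edgeR, 6 were higher at the high dose (9.84% of the names) and 1 was lower (1.64%). Over all 61 names the log2 fold change, high minus low dose, ran from -0.99 to 0.80 with a median of 0.04. It was above 0 for 36 names and below 0 for 25.

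These data bounded the size of a dose difference for most of the miRNA pool. The 95% interval of the log2 fold change lay within a 2-fold difference in both directions for 43 of the 61 names, and those 43 took on average 97.8% of the counts of a library. For 19 names it lay within a 1.5-fold difference. For the other 18 names the interval reached a 2-fold difference in at least 1 direction. Of these 18, 15 had a mean under 30 counts per library, as did 4 of the 43 with narrow intervals. The widest interval was that of pxy-miR-2756-5p (-3.11 to 1.13), which was not listed in low-dose replicate 2 or high-dose replicate 3.

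**Figure D1:**
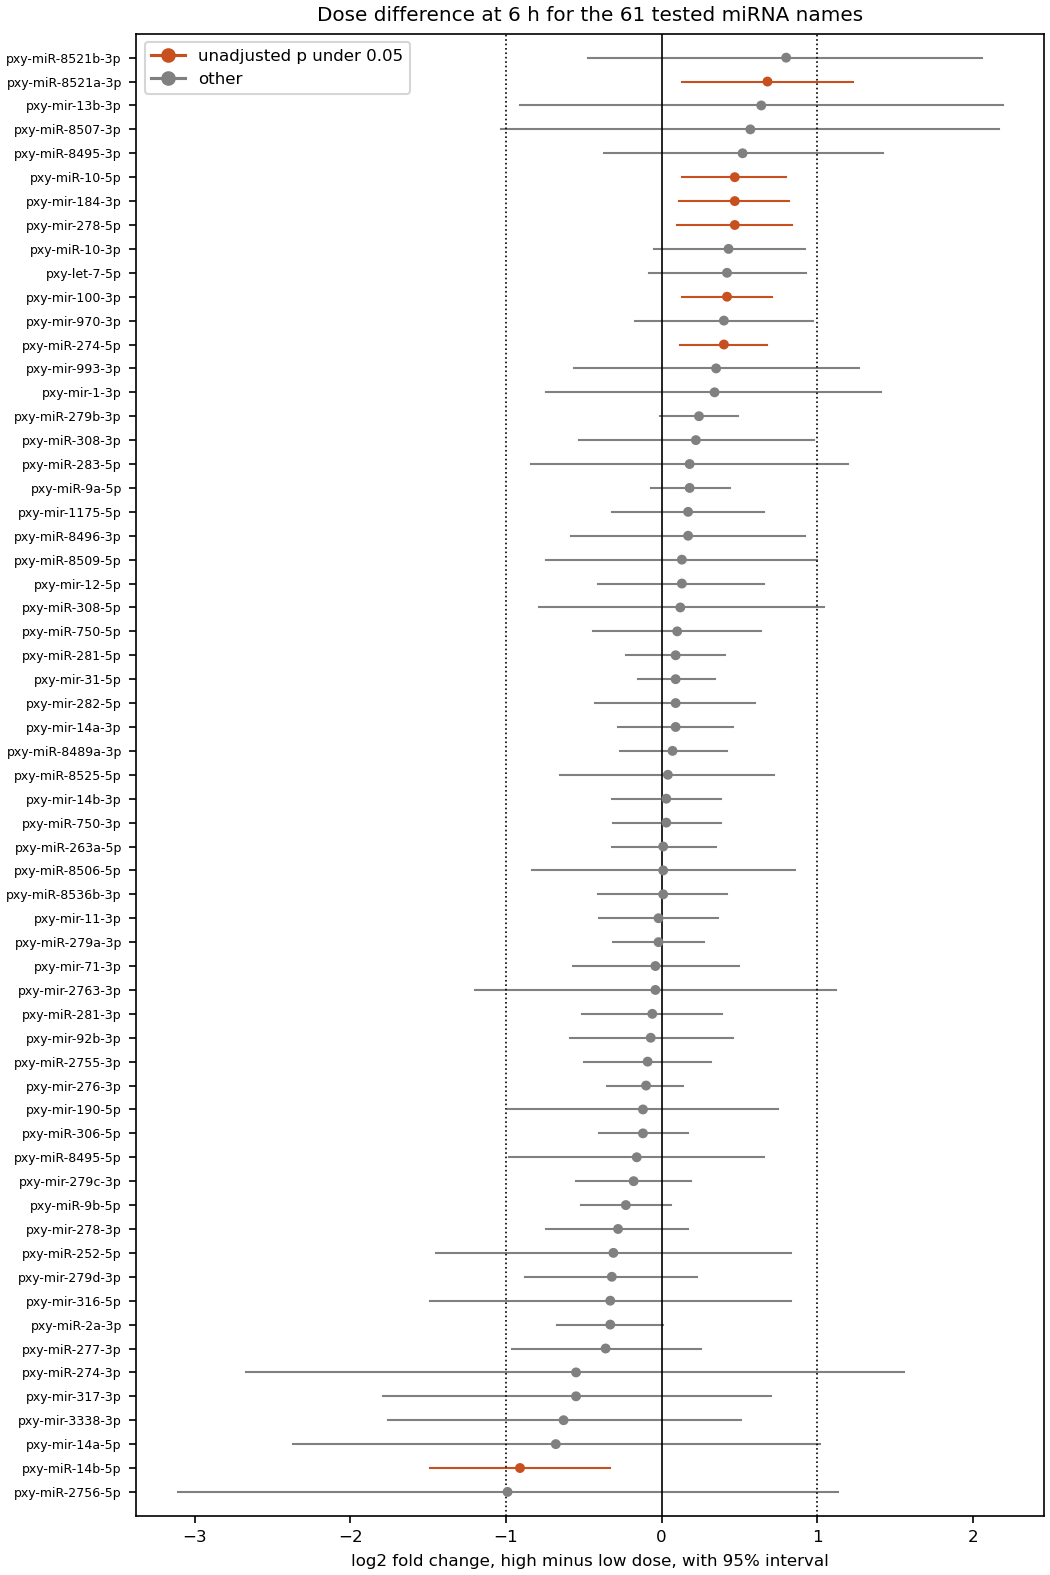
Log2 fold change (high minus low dose, horizontal axis) with its 95% interval for each of the 61 tested names (vertical axis, in order of the value), with dotted lines at a 2-fold difference. The 7 names with an unadjusted p under 0.05 are coloured, and 43 intervals stay between the dotted lines.

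Libraries were shallow and unequal. Total counts were 30676, 10714 and 20386 in low-dose replicates 1, 2 and 3, and 19692, 25815 and 25614 in high-dose replicates 1, 2 and 3. Means were 20592 ± 9983 (SD, n = 3) and 23707 ± 3479, a difference within the spread (exact permutation p = 0.7, two-sided; 3 against 3 libraries cannot go below 0.1). Each library listed 59 to 82 names, the 59 in low-dose replicate 2, and no row under 5 counts was present, so a name that is not listed may lie below that level. The 10 most abundant names took 74.8% to 78.8% of a library and 5p arms 66.6% to 68.4%, with exact permutation p of 0.2 and 0.3 between doses. The biological coefficient of variation was 0.174.

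Dose was not the main axis along which the 6 libraries differed. Over the 46 names with at least 10 counts in every library, the first principal component of log2 CPM (counts brought to equal library size with TMM factors) held 50% of the variance. Its scores were -1.79, 1.62 and -1.42 in low-dose replicates 1, 2 and 3, and -1.06, 1.54 and 1.11 in the high-dose replicates. Low-dose replicate 2 thus lay beside high-dose replicates 2 and 3, and high-dose replicate 1 beside low-dose replicates 1 and 3. On the second component, with 19.5% of the variance, the scores were 0.54, 1.15 and 0.78 at the low dose and -1.41, -0.26 and -0.79 at the high dose, and the doses did not overlap. The 2 libraries that lay beside the other dose on the first component were also the 2 with the fewest counts. High-dose replicate 1 (19692), however, was close in depth to low-dose replicate 3 (20386), and low-dose replicate 2 (10714) was far below both. The part of depth in this was not tested. Over all 61 names, however, low-dose replicate 2 lay apart from every other library on the first component. It scored 4.99 there, against 1.18 and 0.61 in high-dose replicates 2 and 3.

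**Figure D2:**
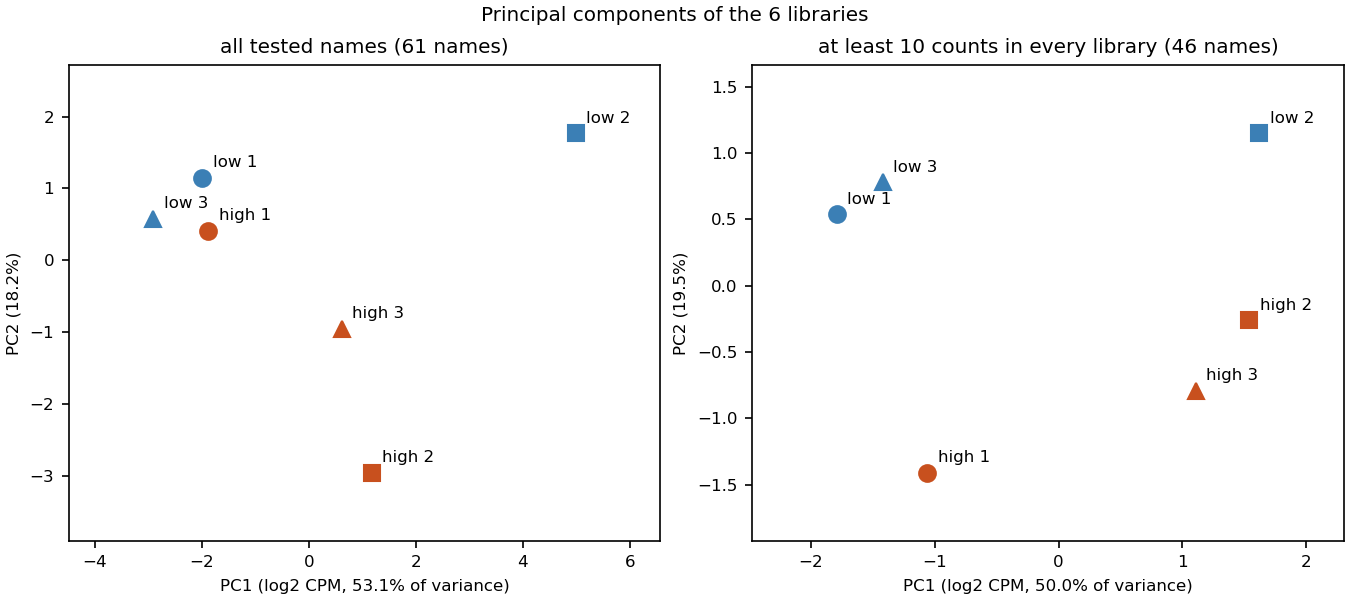
Scores of the 6 libraries on the first and second principal components of log2 CPM, over all 61 tested names (left) and the 46 with at least 10 counts in every library (right), with the share of variance on each axis. On the first component low 2 sits apart from low 1 and low 3 in both panels, and on the second the low-dose libraries lie above the high-dose ones.

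Over all 61 names pxy-miR-274-3p weighed most on the first component. Over the 46 names it was pxy-mir-317-3p, a miRNA clustered with miR-277 and miR-34 in insect genomes. Its levels were 4072, 1226 and 3940 CPM in low-dose replicates 1, 2 and 3, and 4601, 798 and 1432 CPM in high-dose replicates 1, 2 and 3. It was thus high in low-dose replicates 1 and 3 and in high-dose replicate 1, and low in the other 3, whatever the dose. Its log2 fold change was -0.55 ± 0.56 (SE) and did not pass (adjusted p = 0.883, edgeR). Leaving out high-dose replicate 1 made that value -1.49, and leaving out high-dose replicate 2 made it -0.13. The neighbour pxy-miR-277-3p, of a miRNA that governs branched-chain amino acid breakdown in *Drosophila*, stood at 3560, 1926 and 2595 CPM at the low dose and 2598, 2268 and 1677 CPM at the high dose, and the groups overlapped (-0.36 ± 0.27). Leaving out low-dose replicate 1 made that value -0.09.

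The smallest p belonged to pxy-miR-14b-5p, an arm of miR-14, which in *Drosophila* acts on fat stores and on the ecdysone receptor. Whether that role applies to this arm is not known from these files. Its counts were 23 and 63 in low-dose replicates 2 and 3, more in the deeper replicate 1, and 28, 42 and 37 in high-dose replicates 1, 2 and 3. As levels these were, in the order of replicates, 3741, 2014 and 3027 CPM against 1516, 1764 and 1513 CPM, so each high-dose library lay below each low-dose library. The mean was 2927 ± 868 CPM (SD, n = 3) at the low and 1598 ± 144 CPM at the high dose, a log2 fold change of -0.91 ± 0.26 (SE; 95% interval -1.49 to -0.33). It did not pass (unadjusted p = 0.00579, adjusted p = 0.171, edgeR). Its unadjusted p was under 0.05 in each of 18 other settings (other tools, scalings, filters and library sets), with log2 values from -1.09 to -0.68 and adjusted p from 0.0537 to 0.758. The -0.68 and the 0.758 both came from leaving out low-dose replicate 1.

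Of the other 3 miR-14 names, both 3p arms had values near 0. Levels of the opposite arm, pxy-mir-14b-3p, were 11222, 7968 and 11100 CPM at the low and 10123, 11255 and 9898 CPM at the high dose (0.03 ± 0.16, interval -0.32 to 0.38). The related pxy-mir-14a-3p, the most abundant of the 4 at 18113 ± 2789 and 19154 ± 3494 CPM, had 0.09 ± 0.17. The last, pxy-mir-14a-5p, was not listed in low-dose replicate 2 and had at most 19 counts in a library (-0.68 ± 0.77). Members of 14a and 14b may share reads in a way the files do not show, so the split between them is uncertain.

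Setting the arms of one precursor against each other removes the scaling of the libraries. The log2 ratio of pxy-miR-14b-5p to pxy-mir-14b-3p counts was -1.58, -1.98 and -1.87 at the low dose and -2.74, -2.67 and -2.71 at the high dose. The doses did not overlap, and the 5p arm was 1.86-fold scarcer relative to its 3p arm at the high dose. The exact two-sided permutation p was 0.1, the smallest that 3 against 3 libraries allow, and 0.7 after Benjamini-Hochberg adjustment over the 7 precursors with both arms in every library. Among those 7 it was the only one whose doses did not overlap, beside 10 of the 61 names (16.4%) by level. Its 5p arm was the name with the smallest p, so the ratio is not separate support.

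**Figure D3:**
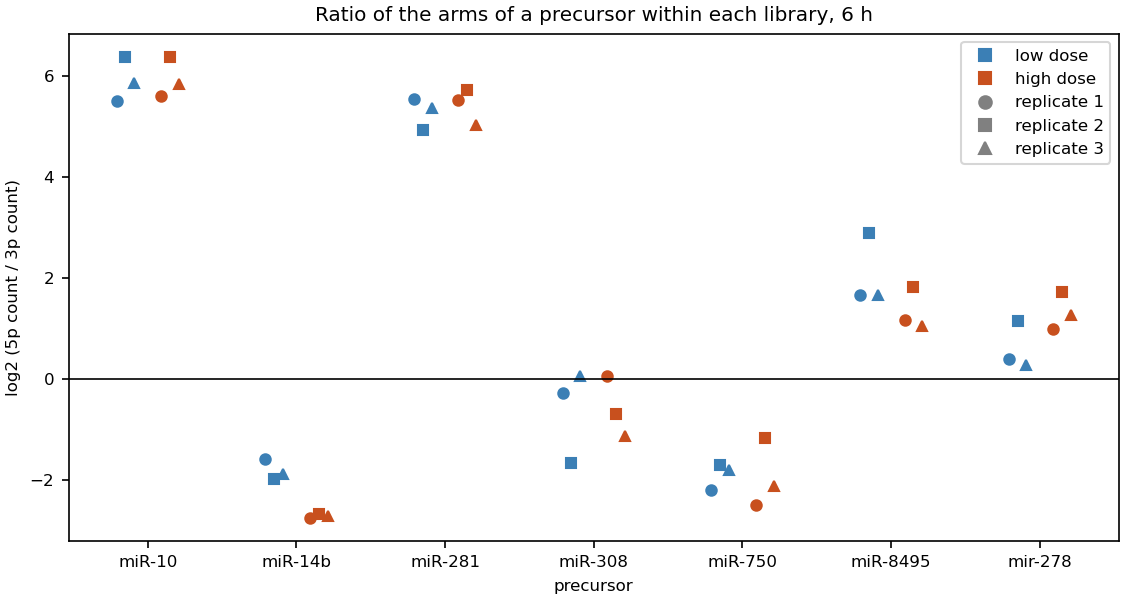
Log2 ratio of 5p to 3p counts (vertical axis) in each of the 6 libraries for the 7 precursors with both arms listed in every library (horizontal axis), low dose in blue and high dose in orange. The 3 high-dose points of miR-14b lie below its 3 low-dose points, and the doses overlap for the other 6.

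The arms of miR-278 had opposite signs. Levels of pxy-mir-278-5p were 7783, 9894 and 7833 CPM in low-dose replicates 1, 2 and 3, and 9635, 12011 and 13293 CPM in the high-dose replicates. The groups overlapped in that high-dose replicate 1 lay below low-dose replicate 2. Its log2 fold change was 0.47 ± 0.17 (SE, unadjusted p = 0.0169, adjusted p = 0.171, edgeR). For pxy-mir-278-3p, the arm linked to pyrethroid resistance in the mosquito *Culex*, levels were 5882, 4466 and 6487 CPM against 4818, 3654 and 5522 CPM (-0.28 ± 0.20). The log2 ratio of 5p to 3p averaged 1.33 ± 0.36 (SD, n = 3) in high-dose and 0.61 ± 0.47 in low-dose libraries, with overlap between low-dose replicate 2 (1.15) and high-dose replicate 1 (1.00; exact permutation p = 0.2, adjusted p = 0.7).

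In the other 5 precursors with both arms, the ratio differed between doses by 0.03 for miR-10, 0.15 for miR-281, 0.05 for miR-308, -0.03 for miR-750 and -0.73 for miR-8495, on the log2 scale. Each of these 5 overlapped between the doses.

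Both tested names of the let-7 complex had values above 0. In insects this complex holds let-7, miR-100 and miR-125, is induced by ecdysone and times the passage between stages. Levels of pxy-mir-100-3p were 12247, 14185 and 13647 CPM at the low and 19541, 16505 and 17465 CPM at the high dose, with no overlap (0.42 ± 0.13, 1.34-fold, unadjusted p = 0.0081, adjusted p = 0.171, edgeR). Those of pxy-let-7-5p were 1810, 1751 and 1730 CPM against 2382, 2604 and 2127 CPM, also with no overlap (0.42 ± 0.23, adjusted p = 0.507). Its counts were 20 to 60 in the low-dose libraries and 44 to 62 in the high-dose ones. The list's median was 0.42 beside 0.04 over all 61 names. For these 2 names the doses did not overlap with plain library totals either, but both values fell to 0.25 (adjusted p = 0.403 and 0.689, edgeR). The third name of the complex at 6 h, pxy-let-7-3p, missed the count minimum. It had 11, 11 and 7 counts at the low dose and 0, 9 and 0 at the high dose.

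Of all 61 names, 10 (16.4%) did not overlap between the doses, 8 with the high dose above (13.1%) and 2 with the low dose above (3.28%). Without any dose difference, a share of 0.1 of the 20 possible groupings of 3 against 3 libraries would show no overlap. Beside pxy-miR-14b-5p, the other with the low dose above was pxy-miR-2a-3p, of a family that represses cell-death genes in *Drosophila*. Its levels were 12127, 10245 and 12253 CPM at the low and 9852, 10121 and 7690 CPM at the high dose (-0.33 ± 0.15, adjusted p = 0.376). The gap between low-dose replicate 2 and high-dose replicate 2 was small beside the spread within a dose.

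**Figure D4:**
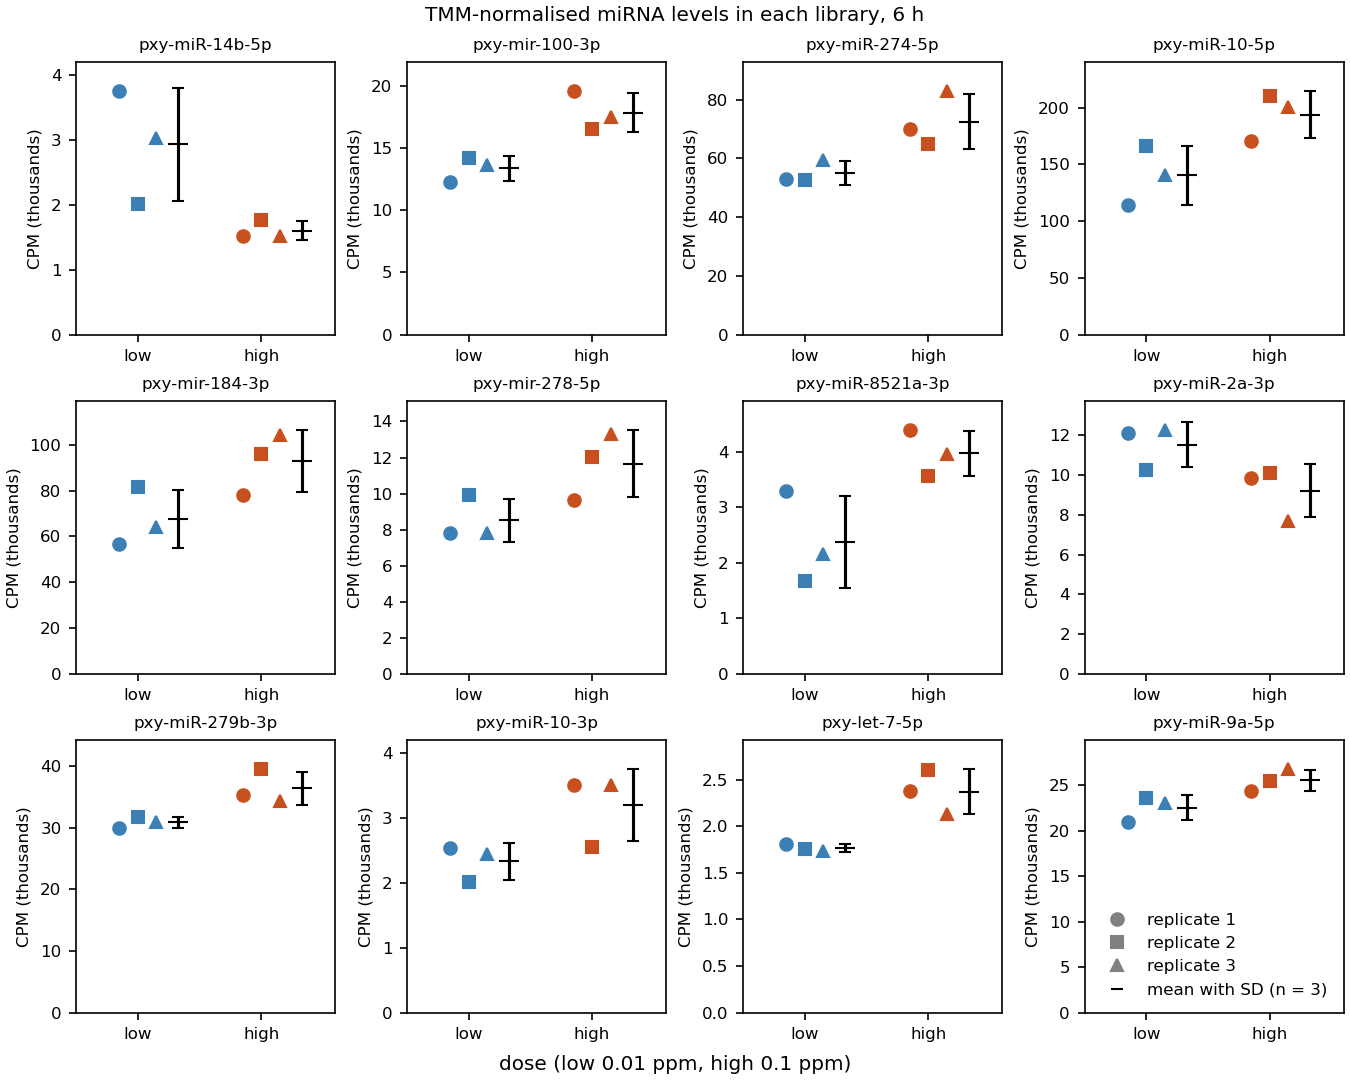
TMM-normalised level in kilo-CPM (vertical axis, from 0) in each library at the low and high dose (horizontal axis), with mean and SD (n = 3), for the 7 names with an unadjusted p under 0.05 and the 5 further names whose doses did not overlap. For pxy-miR-14b-5p and pxy-miR-2a-3p the high-dose points lie lower, and for the other 10 the high-dose mean lies higher.

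Insects carry miR-10 among their Hox genes, and pxy-miR-10-5p was the most abundant name at 6 h, with 16.5% ± 2.78 (SD, n = 6) of a library's counts. Its levels were 114208, 166015 and 140986 CPM at the low and 170459, 210241 and 200175 CPM at the high dose, without overlap (0.47 ± 0.15, 1.38-fold, unadjusted p = 0.0114, adjusted p = 0.171, edgeR). As plain shares of a library, however, low-dose replicate 2 (17.7%) lay above high-dose replicate 1 (16.0%). Its opposite arm pxy-miR-10-3p had a like value of 0.43 ± 0.22, and the third tested Hox name, pxy-mir-993-3p, had 0.35 ± 0.41. The Hox list's median was 0.43, with 0 of 3 passing.

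Levels of pxy-mir-184-3p, which in *Drosophila* acts in egg and early embryo development, were 56742, 81519 and 64198 CPM at the low and 78165, 96133 and 104382 CPM at the high dose. High-dose replicate 1 lay below low-dose replicate 2, so the groups overlapped (0.47 ± 0.16, unadjusted p = 0.0144, adjusted p = 0.171, edgeR). In pxy-miR-10-5p, pxy-mir-184-3p and pxy-mir-278-5p alike, low-dose replicate 2 was the highest low-dose library and high-dose replicate 1 the lowest high-dose library.

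Levels of pxy-miR-274-5p, which in *Drosophila* is passed from glia to neurons and airway cells, were 52790, 52711 and 59585 CPM against 69829, 64887 and 82745 CPM, with no overlap (0.40 ± 0.13, unadjusted p = 0.00985, adjusted p = 0.171, edgeR). Its opposite arm pxy-miR-274-3p was not listed in replicate 2 of either dose and had at most 20 counts elsewhere (-0.55 ± 0.96).

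The last of the 7 was pxy-miR-8521a-3p, one of the miRNAs numbered as found in this moth, for which no role is given here. Its levels were 3288, 1664 and 2162 CPM at the low and 4385, 3570 and 3968 CPM at the high dose (0.68 ± 0.25, 1.61-fold, unadjusted p = 0.0196, adjusted p = 0.171, edgeR). The counts behind the 2 lowest levels were 19 and 45. Its value was 1.03 without low-dose replicate 1 and 0.52 without low-dose replicate 2. With library totals it was 0.51, and the doses overlapped. The related pxy-miR-8521b-3p, with 5 to 29 counts per library, had 0.80 ± 0.57 and overlapped.

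Other abundant names had values near 0. Levels of pxy-mir-31-5p were 128138 ± 6189 (SD, n = 3) CPM at the low and 136461 ± 8183 CPM at the high dose (log2 fold change 0.09, interval -0.15 to 0.34). Levels of pxy-miR-281-5p, which in the silkworm targets a form of the ecdysone receptor, were 124373, 114792 and 125369 CPM against 143502, 142750 and 101560 CPM at the high dose, where high-dose replicate 3 was the lowest of all 6 (0.09, interval -0.23 to 0.41). For pxy-miR-263a-5p, which protects sense organ cells in *Drosophila*, the value was 0.01 (interval -0.32 to 0.35), with the highest level in high-dose replicate 1 (96678 CPM) and the lowest in high-dose replicate 3 (67325 CPM). The value of pxy-mir-276-3p, which acts on a dopamine receptor in *Drosophila* memory, was -0.10 (interval -0.35 to 0.14). Its doses overlapped with TMM but not with library totals, where the low dose lay above.

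The miR-9 and miR-279 families, which act in the making of sense organs and of neurons in *Drosophila*, held values of both signs. In the first, pxy-miR-9a-5p ran at 20995, 23554 and 23113 CPM at the low and 24359, 25493 and 26750 CPM at the high dose (0.18 ± 0.11), while pxy-miR-9b-5p ran at 40935, 39227 and 45313 against 40111, 36790 and 30145 CPM (-0.23 ± 0.13). The doses did not overlap for the first and overlapped for the second. With plain library totals this turned: pxy-miR-9a-5p overlapped (0.01), and pxy-miR-9b-5p did not, with the low dose above (-0.40, unadjusted p = 0.00845, adjusted p = 0.172, edgeR). In the other family, pxy-miR-279b-3p ran at 30015, 31697 and 30898 CPM against 35402, 39478 and 34399 CPM, without overlap (0.24 ± 0.11, adjusted p = 0.376), but with library totals it overlapped (0.07). The others had -0.02 (pxy-miR-279a-3p), -0.18 (pxy-mir-279c-3p) and -0.32 (pxy-mir-279d-3p). The seventh name, pxy-miR-306-5p, was listed with miR-9 by number and not as a nervous or sensory miRNA. It had -0.12 ± 0.13, and none of the 7 passed.

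Muscle is where the insecticide acts, and counts of its main miRNA were low in these libraries. Whether that miRNA is scarce in the larvae was not tested. The 6 libraries held 15, 8 and 23 counts of pxy-mir-1-3p at the low dose and 9, 29 and 25 counts at the high one. The levels, 452, 700 and 1105 against 487, 1218 and 1023 CPM, overlapped across nearly their whole range (0.34 ± 0.49, interval -0.74 to 1.41). That interval includes a 2-fold difference.

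Of 9 tested names of families tied in insects to hormones and growth, 0 passed, 4 had values above 0 and 5 below, and the median was -0.06. With library totals 1 was above 0 and 8 below (median -0.23), beside 21 above and 40 below over all 61 names. Besides miR-14 and miR-278 this list held pxy-miR-281-3p (-0.06 ± 0.21) and pxy-miR-252-5p (-0.31 ± 0.51). Of the 7 names tied in *Drosophila* to metabolism, 0 passed, with 3 above 0 and 4 below and a median of -0.28, and with library totals 1 was above and 6 below. Its members are the miR-14 and miR-278 names with pxy-miR-277-3p. Of 6 names of families reported with insecticide or toxin response in insects, 0 passed, with 2 above 0, 4 below and a median of -0.05. They were both arms of miR-278 and pxy-miR-2a-3p with pxy-mir-71-3p (-0.04), pxy-mir-92b-3p (-0.07) and pxy-mir-13b-3p (0.64 ± 0.70, unlisted in low-dose replicate 2).

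Of 10 tested names with numbers assigned to miRNAs found in *P. xylostella*, 9 had values above 0 and 1 below, with a median of 0.15, and 0 passed. Over all 61 names 36 were above 0 and 25 below. With library totals the 10 names split into 5 above and 5 below, with a median of -0.02. The one below was pxy-miR-8495-5p (-0.16 ± 0.37), whose opposite arm pxy-miR-8495-3p had 0.52 ± 0.40. Of 4 names first described in moths, all had values below 0, from -0.99 for pxy-miR-2756-5p to -0.04 for pxy-mir-2763-3p, with a median of -0.36, and 0 passed. Between them lay pxy-mir-3338-3p (-0.63 ± 0.51) and pxy-miR-2755-3p (-0.09 ± 0.19). With upper quartile factors 1 of these 4 names, pxy-mir-2763-3p, was above 0 (0.01). With 7 to 29 counts of pxy-mir-3338-3p in 5 libraries and 6 in low-dose replicate 2, its levels of 875, 525 and 1057 against 920, 504 and 286 CPM overlapped.

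Among the small genomic groups, the neighbours pxy-miR-750-3p (0.03 ± 0.16) and pxy-mir-1175-5p (0.17 ± 0.22) and the cluster members pxy-mir-12-5p (0.13 ± 0.24) and pxy-miR-283-5p (0.18 ± 0.46) had values near 0. The interval of pxy-miR-283-5p, however, ran from -0.84 to 1.2 and so includes a 2-fold difference. Of the 5 names numbered like miRNAs with K box seeds, pxy-mir-11-3p had -0.02, pxy-miR-308-3p 0.22 and pxy-miR-308-5p 0.12, beside pxy-miR-2a-3p and pxy-mir-13b-3p. They were listed by number and seeds were not examined, so an opposite arm such as pxy-miR-308-5p may not carry that seed. The 5 epithelial and midgut names had a median of 0.09, or -0.09 with library totals, and the 7 nervous and sensory names one of -0.02, or -0.19. Neither miR-275 nor miR-305 was listed at 6 h. Among names outside these lists, pxy-mir-970-3p had 0.40 ± 0.26 and pxy-mir-316-5p -0.33 ± 0.52.

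Signs of small values depended on how the libraries were scaled. The TMM factors were 1.09, 1.07 and 1.03 for the low-dose and 0.943, 0.926 and 0.958 for the high-dose libraries, so each low-dose factor was above each high-dose one. With plain library totals the median log2 fold change of the 61 names was -0.13 in place of 0.04, and 5 names had an unadjusted p under 0.05, all 5 lower at the high dose, in place of 6 higher and 1 lower. With upper quartile factors 8 were higher and 1 lower. With library totals the doses did not overlap for 7 names (11.5%), 2 with the high (3.28%) and 5 with the low dose above (8.2%), and 4 of those were among the 10 found with TMM. These 4 were pxy-miR-14b-5p, pxy-miR-2a-3p, pxy-mir-100-3p and pxy-let-7-5p. The 7 names with the smallest p kept their sign under each of the 18 other settings, with the 6 above 0 reaching down to 0.23. They were picked by p from the same counts that these settings reuse, so the kept signs are not separate support. With library totals only 1 of the 7 had an unadjusted p under 0.05 (edgeR).

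**Figure D5:**
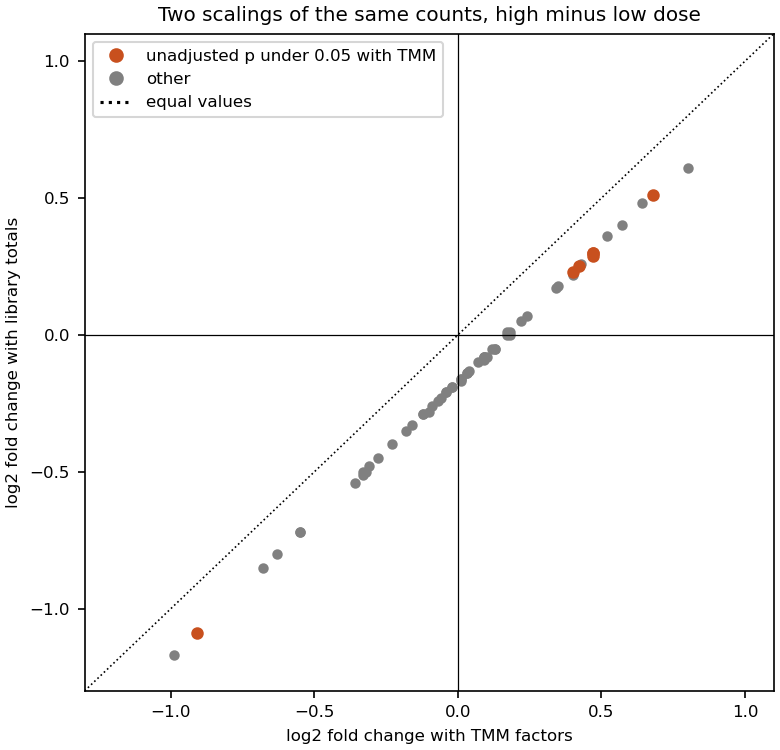
Log2 fold change (high minus low dose) of the 61 names with TMM factors (horizontal axis) and with library totals (vertical axis), with the line of equal values dotted. The points run parallel below that line, and the 7 names with an unadjusted p under 0.05 with TMM, in orange, keep their sign.

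Each abundant name filled several rows of a library, and the files do not say how the rows of a name differ. The rows of pxy-miR-10-5p numbered 9 to 15, and its largest row held 75.2%, 74.5% and 74.4% of its counts at the low dose and 76.7%, 77.9% and 78.8% at the high one. Of the 10 most abundant names it was the only one whose largest-row share did not overlap between the doses. By level, 10 of the 61 names (16.4%) did not overlap. The difference in row share was not tested. For pxy-miR-281-5p that share stayed between 43.6% and 46.5% and for pxy-miR-279b-3p at or above 97.3%, while for pxy-miR-263a-5p it ran from 52.4% to 67.4%.

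Names that missed the count minimum numbered 28, of which 11 were listed in a single 6 h library, and they held at most 0.82% of a library. The highest count among them was 48, of pxy-miR-2b-3p in low-dose replicate 1, chosen here after its values were seen. This name had 25 counts in low-dose replicate 3 and 9 and 8 in high-dose replicates 1 and 2, and was not listed in the other 2 libraries. The opposite arm of let-7, pxy-let-7-3p, had 11, 11 and 7 counts at the low dose, 9 in high-dose replicate 2 and no listing in the other high-dose libraries. Of the 61 tested names, 46 had at least 10 counts in every library. In 6, all 3 high-dose libraries reached 10 and low-dose replicate 2, the shallowest library, did not, so these entered partly through the high dose.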

How the data were processed

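Per the labels' protocols, total RNA from surviving larvae was made into TruSeq small RNA libraries, called biological replicates, and sequenced on an Illumina HiSeq. The authors deposited raw read counts per miRNA name, per the file headers. The sources used here name no mapper, miRNA reference or row filter. Mature sequences and genomic positions were not used here. All rows of a name were added up. With no molecular identifiers named, intervals cover the spread between libraries, not independent molecules.

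Names with at least 10 counts in 3 or more of the 6 libraries were tested with edgeR 4.0.16 (R 4.3.3): TMM factors, glmQLFit and glmQLFTest with a mean per dose (4 residual degrees of freedom), Benjamini-Hochberg over 61 names, threshold 0.05. Standard errors are the log2 fold change over the square root of F, and 95% intervals use the moderated degrees of freedom (10.54). CPM are TMM-scaled. Principal components used log2 CPM with a prior count of 2. Scripts were tested on simulated data. Within a dose, each pair of libraries differed by more than sampling noise (chi-square over its degrees of freedom from 3.13 to 11.8), and none was merged.

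Names described in full were up to 10 higher and 10 lower by p, the 10 most abundant, the tested members of the let-7, muscle, hormone and insecticide lists, and opposite arms of the first 6 by p. These rules, the lists and the comparison were chosen with earlier results of these data known. Alternatives were DESeq2 1.42.0, limma-voom (limma 3.58.1), other scalings, filters, rows and library sets.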

Additional observations from a re-analysis of the deposited data

How the results depend on the processing

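The count of 0 calls was 0 in each of 18 other settings except the replicate block, with which pxy-miR-10-5p passed (1 call, adjusted p = 0.0434, against 0.0532 to 0.758 in the other 17). Same-numbered libraries of the doses correlated at 0.444, 0.267 and -0.026 in their deviations from the group means. For low-dose replicates 1 and 2 these were the highest values with any high-dose library. Low-dose replicate 3 correlated most with high-dose replicate 1 (0.379). With so few libraries these values cannot tell whether the numbers pair them. With all 12 libraries in the fit, pxy-miR-14b-5p had adjusted p = 0.0668. Without both low-dose replicate 2 and high-dose replicate 1, an omission chosen after seeing the data and because each lay near the other dose, 5 names passed and 13 had an unadjusted p under 0.05. The 5 were pxy-miR-10-5p (0.69), pxy-mir-184-3p (0.73) and pxy-mir-278-5p (0.70), higher, and pxy-miR-14b-5p (-1.06) and pxy-mir-317-3p (-1.84), lower, and as the 2 libraries were chosen by their likeness to the other dose these calls are not independent of the outcome. With 1 library left out there were 0 calls in each of the 6 fits, and the names with an unadjusted p under 0.05 numbered 2 to 10, the 2 without low-dose replicate 1 or 3.

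Of the 34 names described by rule, 22 kept their sign under every alternative run, and the other 12 had a changed sign somewhere, none of them past the threshold. With library totals the log2 values were -0.08 (pxy-mir-31-5p), -0.09 (pxy-miR-281-5p), -0.08 (pxy-mir-14a-3p), -0.14 (pxy-mir-14b-3p) and -0.16 (pxy-miR-263a-5p). With the highest single row they were 0.003 (pxy-mir-279c-3p), -0.01 (pxy-mir-31-5p), -0.02 (pxy-miR-281-5p), -0.05 (pxy-mir-14a-3p), -0.08 (pxy-mir-14b-3p) and -0.22 (pxy-miR-263a-5p). With upper quartile factors they were 0.001 for pxy-mir-92b-3p and 0.03 for pxy-mir-71-3p. With names listed in all 6 libraries they were -0.03 for pxy-mir-14b-3p and -0.05 for pxy-miR-263a-5p, and with a row floor alike per library size -0.04 for each. In limma-voom pxy-mir-14b-3p had -0.03, and in DESeq2 or with RLE factors pxy-miR-263a-5p had -0.02. Without both doubted libraries the values were -0.03 (pxy-miR-281-5p), 0.03 (pxy-miR-281-3p), -0.08 (pxy-mir-14b-3p) and -0.23 (pxy-miR-263a-5p). Over the 6 fits that leave out 1 library, values ran from -0.02 to 0.15 (pxy-mir-31-5p), -0.0006 to 0.76 (pxy-mir-1-3p), -0.64 to 0.01 (pxy-miR-252-5p), -1.15 to 0.13 (pxy-miR-274-3p), -0.06 to 0.17 (pxy-mir-14a-3p), -0.19 to 0.06 (pxy-miR-281-3p), -0.27 to 0.03 (pxy-mir-92b-3p), -0.10 to 0.12 (pxy-mir-14b-3p), -0.20 to 0.13 (pxy-mir-71-3p) and -0.14 to 0.08 (pxy-miR-263a-5p). The dose difference in total counts ran from -1824 to 8157, in names listed from -5.5 to 6.0 and in rows listed from -27.67 to 41.83 with 1 library left out, the lowest of each without low-dose replicate 2. With the row floor, names and rows differed by -3.33 and -10. The causes were not tested.

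Of the 18 names whose intervals reach a 2-fold difference, 15 had a mean under 30 counts per library, as did 4 of the other 43. The part of depth was not tested.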
